A study of Mus musculus with 15 samples.

Results

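The genes described here are 9 regulators of NF-κB signalling: the TRAF adaptors Traf1, Traf2, Traf3, Traf5 and Traf6, the ubiquitin ligases Birc3 and Peli1, and the restraining pair Tnfaip3 and Tnip1. Their rows were taken by gene symbol, and all 9 were found among the 17493 genes of the count tables. Of these, 8 passed a filter on low counts and were tested among 10831 genes. Traf5 did not pass it and was not tested.

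Bulk RNA was counted in 15 libraries of CD8+ T cells from spleen and lymph nodes of female OT-I mice, labelled C57BL/6-Tg(TcraTcrb)1100Mjb/Crl, all of which carry a transgenic antigen receptor for an ovalbumin peptide on MHC class I. Cells without stimulation were taken at 0 h, and the other cells had been stimulated for 8 h or 22 h, with 3 libraries in each of the 5 groups. The immunofilament (IF) is a synthetic polymer chain that displayed peptide-MHC with the SIIT peptide together with interleukin-2 and was given at 5 ng/ml, and the dendritic cells (DC), grown with Flt3 ligand, were loaded with SIITFEKL and added at 20000 per well to 50000 T cells. Viable CD8+ CD103- cells were sorted before lysis. Interleukin-2 is named for the filaments only, and the unstimulated cells were taken at 0 h, so hours of culture and stimulation cannot be told apart.

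TRAF proteins bind the tails of tumour necrosis factor receptor family members and of Toll-like and interleukin-1 receptor complexes, and they gather kinases and ubiquitin ligases there. Ubiquitin chains built on these complexes switch on the IKK kinase, which has IκB destroyed and lets NF-κB enter the nucleus. NF-κB in turn drives genes for its own brakes, among them A20, the product of Tnfaip3. In T cells the antigen receptor also activates IKK, and costimulatory receptors such as 4-1BB, OX40 and CD27 work through TRAFs.

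Total counts per library ran from 2892874 to 19806730. Levels are normalised read counts in CPM, computed by edgeR from TMM-scaled library totals, given for replicates 1, 2 and 3 in that order. The reads come from transcript 3′ ends, and levels were not compared between genes. The titles mark the libraries of each group Don1 to Don3, which may name donors. They do not say whether these are separate animals or whether a number is the same animal in every group, so p-values measure only the spread between these libraries, which may be technical. Libraries of a group differed by 9.95 to 105 times counting variation (chi-square per degree of freedom). CD8 T cell markers summed to 8515 to 9240 CPM in the unstimulated libraries and to 3829 to 6155 CPM in the stimulated ones, so they moved with every comparison against unstimulated cells, and their part in those comparisons was not tested. The CD4 T cell markers Cd4 and Foxp3 summed to at most 8.62. The limit that a count of 0 allows, taken as 3 counts, was 0.153 to 0.995 CPM over the libraries. Replicates 2 and 3 of IF 22 h stood apart, with mitochondrial rRNA at 0.179% and 0.146% of counts against 1.82% to 4.49% in the other 13 libraries. In those libraries 92 genes lay more than 2-fold below every other library, and no member was among them. Because the libraries are bulk samples, fewer cells of a type and less RNA per cell cannot be told apart.

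The start regions of the members were searched for NF-κB motifs, since several members are textbook NF-κB targets. Sequences were RefSeq windows of 300 bases on GRCm38.p6, the assembly that mm10 names, and all 9 members matched, with 10 windows. A loose motif, GGG and CC with any 5 bases between them, on either strand, was in 50.8% of all 32851 windows and in 9 of the members' 10. The stricter kappaB consensus, whose matches are a subset of the first, was in 8.46% of all windows and in 3 of the 10, those of Traf3, Tnip1 and the upstream start of Tnfaip3. The window of Traf1 (chr2:34961723-34962022, minus strand) held neither. The stretches below show each place with the stricter match, with 1 of 3 overlapping matches in Tnip1, and the Birc3 stretch as an example of the looser motif alone. Tnip1, Birc3 and Tnfaip3 changed in the comparisons that follow, and Traf3 did not pass the threshold in any. Traf6, which also changed, had only the looser motif, at -63 and -57, and is not shown, nor are Traf2, Traf5 and Peli1 with the looser motif alone. Capitals mark the motif. The Tnip1 stretch (chr11:54962968-54963017, minus strand) has a match that starts at -57 from the RefSeq start and reads alike on both strands. The Tnfaip3 stretches (chr10:19015506-19015555 and chr10:19015393-19015442, minus strand) have matches at -125 and -12. The Traf3 stretch (chr12:111166340-111166389, plus strand) has one at -10. The Birc3 stretch (chr9:7873198-7873247, minus strand) has only the looser motif, at -57. A match is a description of the letters and not a measured binding site.
Tnip1: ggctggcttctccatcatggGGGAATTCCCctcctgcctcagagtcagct
Tnfaip3, at -125: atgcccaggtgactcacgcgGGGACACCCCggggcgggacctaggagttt
Tnfaip3, at -12: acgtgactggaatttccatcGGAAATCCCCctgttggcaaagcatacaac
Traf3: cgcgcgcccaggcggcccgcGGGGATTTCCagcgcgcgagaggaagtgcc
Birc3: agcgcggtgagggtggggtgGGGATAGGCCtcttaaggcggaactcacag

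Traf1 was higher than in unstimulated cells in all 4 stimulated groups, and Tnfaip3 was lower in all 4. Birc3 was higher at 8 h with both stimuli and not past the threshold at 22 h. At IF 8 h 4 members passed the threshold (adjusted p below 0.05 in edgeR's quasi-likelihood test), 2 upward and 2 downward, where 7.76% of all tested genes passed, 3.04% upward and 4.72% downward. At DC 8 h 4 members passed, 3 upward and 1 downward, against 6.82% of all genes, 2.75% upward and 4.07% downward. At IF 22 h 2 members passed, 1 in each direction, against 6.08% of all genes, 2.63% upward and 3.44% downward. At DC 22 h 2 members passed, 1 in each direction, against 7.76% of all genes, 3.41% upward and 4.35% downward. The median log2 fold change of the 8 tested members was 0.07 at IF 8 h and 0.31 at DC 8 h, and it was -0.09 at IF 22 h and 0.15 at DC 22 h. Over all genes these medians were 0.02, 0.04, 0.01 and 0.04. These 4 comparisons share the 3 unstimulated libraries, so they are not independent of each other.

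**Figure D1:**
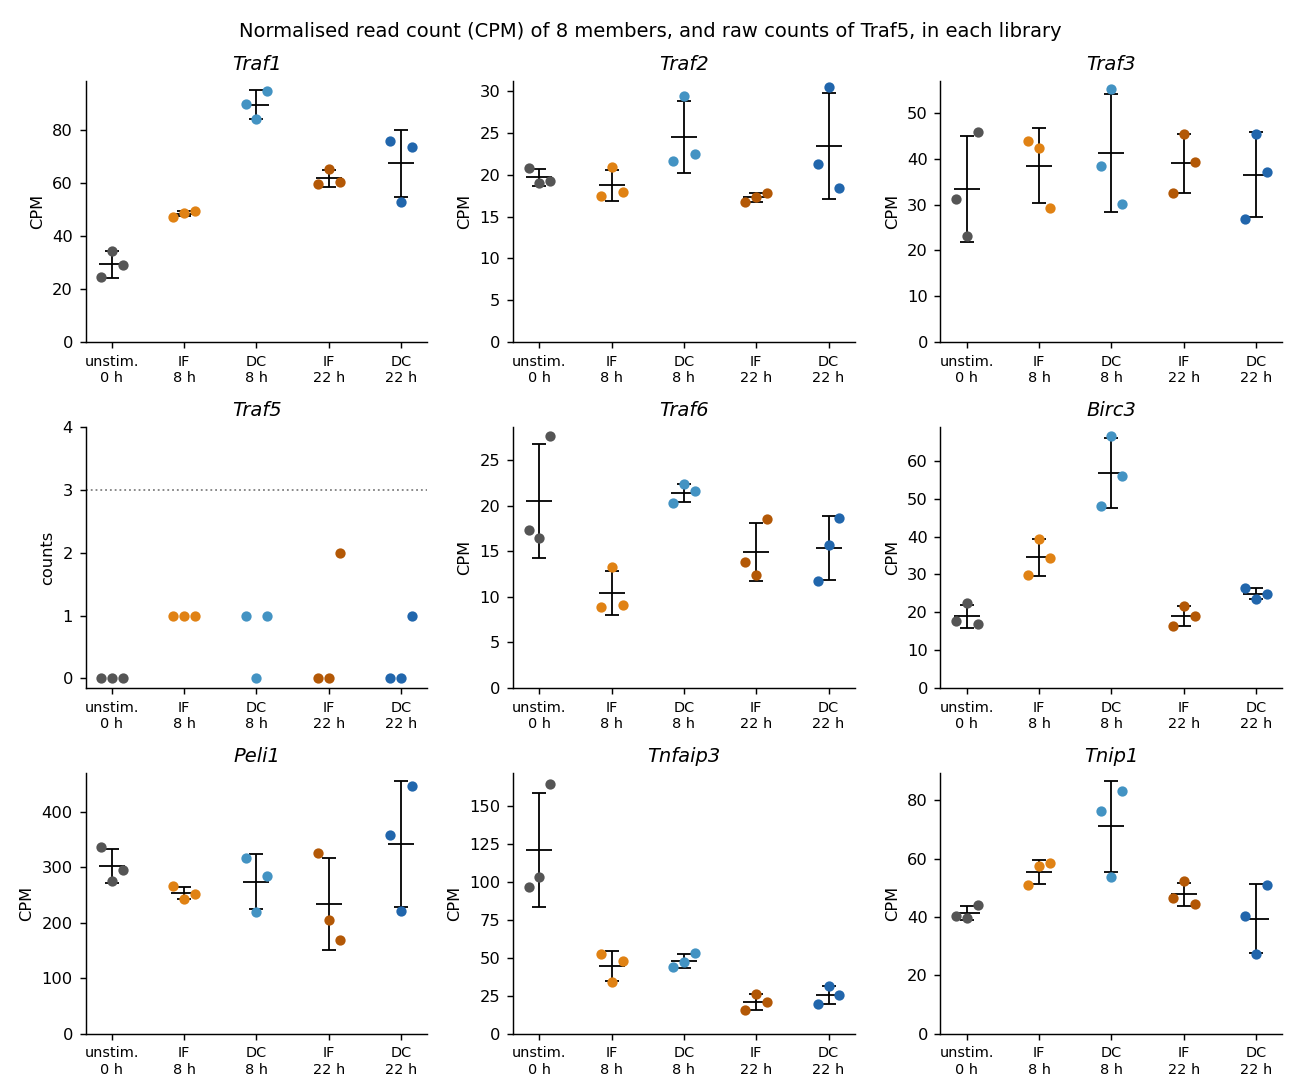
Normalised read count (CPM) of each member in each library, with raw counts for Traf5; dots from left to right in a group are replicates 1, 2 and 3, and bars are mean ± SD (n = 3). Traf1 lay above its unstimulated range (24.4 to 34.3) in every stimulated library, Tnfaip3 lay below its unstimulated range (96.6 to 165) in every stimulated library, and Traf5 never reached the 3 counts marked by the dotted line.

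Traf1 (chr2:34941750-34961772, minus strand) encodes a TRAF without a RING domain that pairs with TRAF2 and cIAP proteins at receptors such as 4-1BB. Its level was 24.4, 34.3 and 29.1 CPM in unstimulated cells and 47.3, 48.7 and 49.3 CPM at IF 8 h. It was 89.6, 84.0 and 94.7 CPM at DC 8 h, 59.5, 65.3 and 60.3 CPM at IF 22 h, and 75.9, 52.8 and 73.3 CPM at DC 22 h. No stimulated library overlapped the unstimulated ones, and the DC 8 h libraries were above all others. The log2 fold change against unstimulated cells was 0.73 ± 0.18 (SE, adjusted p = 0.0215 in edgeR) at IF 8 h. It was 1.61 ± 0.18 (adjusted p = 4.75e-05) at DC 8 h. At 22 h it was 1.08 ± 0.18 with IF (adjusted p = 0.00159) and 1.20 ± 0.18 with DC (adjusted p = 0.000641). The IF 8 h call was lost without unstimulated replicate 1 (adjusted p = 0.0991) or 3 (0.07), and without IF 8 h replicate 1 (0.057), 2 (0.0536) or 3 (0.067). The IF 22 h call was lost without both libraries of low mitochondrial rRNA (adjusted p = 0.0848), where the log2 fold change was 1.03.

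Traf2 and Traf3 did not pass the threshold in any comparison. Traf2 (chr2:25517982-25546940, minus strand) encodes the adaptor that brings cIAP ligases to tumour necrosis factor receptors. Its level was 20.8, 19.0 and 19.3 CPM in unstimulated cells, 17.5, 20.9 and 17.9 CPM at IF 8 h, and 21.7, 29.4 and 22.5 CPM at DC 8 h. After 22 h the level was 16.8, 17.3 and 17.8 CPM with IF and 21.3, 30.5 and 18.5 CPM with DC. Replicate 2 was the highest library in both DC groups, and all 3 IF 22 h libraries lay below every unstimulated library. The largest of its 4 differences from unstimulated cells was 0.31 on the log2 scale at DC 8 h (95% interval -0.15 to 0.78, adjusted p = 0.45 in edgeR).

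Traf3 (chr12:111166370-111267153, plus strand) encodes the TRAF that holds the NIK kinase of the non-canonical NF-κB pathway for degradation. Its level was 31.3, 23.1 and 45.9 CPM in unstimulated cells, 43.9, 42.4 and 29.2 CPM at IF 8 h, and 38.3, 55.3 and 30.1 CPM at DC 8 h. The 22 h values were 32.5, 45.3 and 39.3 CPM with IF and 26.9, 45.3 and 37.2 CPM with DC. Every stimulated group overlapped the unstimulated libraries. The 95% interval of its log2 difference at DC 8 h, -0.30 to 0.91, covered both lower and higher levels.

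Traf6 (chr2:101678429-101701669, plus strand) encodes the ubiquitin ligase of Toll-like and interleukin-1 receptor signalling. Its level was 17.3, 16.4 and 27.7 CPM in unstimulated cells and 8.92, 13.3 and 9.11 CPM at IF 8 h. It was 20.3, 22.4 and 21.6 CPM at DC 8 h, 13.8, 12.4 and 18.5 CPM at IF 22 h, and 11.7, 15.7 and 18.7 CPM at DC 22 h. The IF 8 h libraries lay below all unstimulated and all DC 8 h libraries, while the other groups overlapped the unstimulated one. Traf6 fell at IF 8 h, with a log2 fold change of -0.98 ± 0.28 (SE, adjusted p = 0.0443 in edgeR). At DC 8 h the change was 0.07 ± 0.27 (adjusted p = 0.921), and at 22 h it was -0.44 with IF (adjusted p = 0.38) and -0.40 with DC (adjusted p = 0.396). The IF 8 h call rested on 124 counts over 3 libraries and was lost with library size alone (adjusted p = 0.106), without the low-count filter (0.0538) and with only both groups in the fit (0.0614). It was also lost without unstimulated replicate 1 (0.0611), 2 (0.0547) or 3 (0.188) and without IF 8 h replicate 1 (0.149) or 3 (0.142).

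Traf5 (chr1:191997205-192092559, minus strand), whose product serves receptors such as OX40 and CD27, had 8 counts in all libraries together. It had 0 counts in 8 of 15 libraries, including all 3 unstimulated ones. It had 1 count in each IF 8 h library and at most 2 counts in any library. Each single library lies under the limit of 3 counts, while the IF 8 h libraries together held 3 counts. Traf5 was not tested, so no difference between groups can be read from these counts. Traf5 shares exonic bases with Mir3473c on its own strand and with Gm26879 on the opposite strand in GENCODE vM21, whereas the other 8 members share none.

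Birc3 (chr9:7848699-7873186, minus strand) encodes cIAP2, which attaches ubiquitin to RIPK1 at TRAF2 complexes. Its level was 17.6, 22.4 and 16.8 CPM in unstimulated cells, 29.8, 39.5 and 34.3 CPM at IF 8 h, and 47.9, 66.4 and 55.9 CPM at DC 8 h. At 22 h it was 16.4, 21.6 and 18.9 CPM with IF and 26.4, 23.6 and 24.8 CPM with DC. The IF 22 h libraries overlapped the unstimulated ones, and the DC 22 h libraries lay just above them. The log2 fold change was 0.86 ± 0.21 at IF 8 h (SE, adjusted p = 0.0179 in edgeR) and 1.58 ± 0.20 at DC 8 h (adjusted p = 0.000172). At 22 h it was 0.00 with IF (95% interval -0.43 to 0.43) and 0.39 with DC (adjusted p = 0.264). The IF 8 h call was lost without unstimulated replicate 1 (adjusted p = 0.0744) or 3 (0.078) and without IF 8 h replicate 2 (0.0651) or 3 (0.0521). The DC 22 h difference reached 0.72 (adjusted p = 0.0263) when libraries were scaled by their size alone.

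Peli1 (chr11:21091291-21150323, plus strand) encodes Pellino 1, a ubiquitin ligase known as a brake on T cell activation. Its level was 336, 276 and 296 CPM in unstimulated cells, 266, 243 and 252 CPM at IF 8 h, and 318, 219.8 and 285 CPM at DC 8 h. After 22 h the level was 327, 204 and 168 CPM with IF and 358, 221 and 447 CPM with DC. The spread within the 22 h groups was wide, and Peli1 did not pass the threshold in any comparison. Its 4 log2 differences from unstimulated cells lay between -0.38 (IF 22 h, adjusted p = 0.43 in edgeR) and 0.18 (DC 22 h, adjusted p = 0.735).

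Tnfaip3 (chr10:19000910-19015657, minus strand) encodes A20, which edits ubiquitin chains and ends NF-κB signalling. Its level was 96.6, 103 and 165 CPM in unstimulated cells, 52.3, 33.8 and 48.0 CPM at IF 8 h, and 44.2, 47.2 and 53.3 CPM at DC 8 h. The 22 h values were 15.7, 26.2 and 20.8 CPM with IF and 19.6, 31.3 and 25.5 CPM with DC. Every stimulated library lay below every unstimulated one, and every 22 h library lay below every 8 h library. The log2 fold change was -1.44 ± 0.26 at IF 8 h (SE, adjusted p = 0.00261 in edgeR) and -1.33 ± 0.25 at DC 8 h (adjusted p = 0.00385). It was -2.54 ± 0.26 at IF 22 h (adjusted p = 2.8e-05) and -2.25 ± 0.26 at DC 22 h (adjusted p = 9.08e-05). All 4 calls held under each alternative that was run. Tnfaip3 was highest in unstimulated replicate 3, and without it the log2 change at IF 8 h was -1.16 (adjusted p = 0.0183).

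Tnip1 (chr11:54910785-54962917, minus strand) encodes ABIN1, a ubiquitin-binding partner of A20. Its level was 40.4, 39.6 and 44.0 CPM in unstimulated cells, 50.8, 57.4 and 58.4 CPM at IF 8 h, and 76.3, 53.5 and 83.1 CPM at DC 8 h. At 22 h it was 46.4, 52.2 and 44.5 CPM with IF and 40.2, 27.2 and 50.9 CPM with DC. Both 8 h groups and the IF 22 h group lay above the unstimulated libraries, the latter by little, and the DC 22 h group overlapped them. Tnip1 rose at DC 8 h, by 0.78 ± 0.22 on the log2 scale (SE, adjusted p = 0.0397 in edgeR), and the difference at IF 8 h was 0.43 ± 0.22 (adjusted p = 0.263). The DC 8 h call was lost without unstimulated replicate 1 (adjusted p = 0.108), 2 (0.123) or 3 (0.084) and without DC 8 h replicate 1 (0.123) or 3 (0.121).

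**Figure D2:**
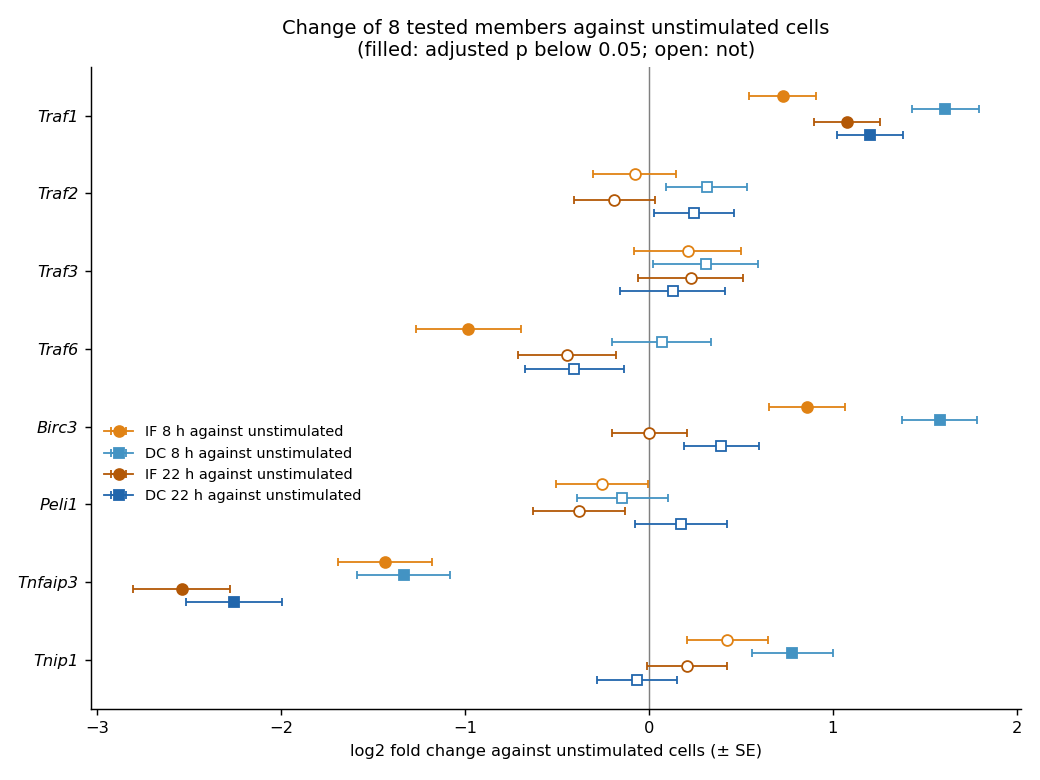
Log2 fold change of the 8 tested members against unstimulated cells in each stimulated group, with bars of ± SE. Filled symbols have an adjusted p below 0.05 in edgeR. Traf1 lies to the right in all 4 groups (0.73 to 1.61), Tnfaip3 to the left in all 4 (-1.33 to -2.54), and Birc3 to the right at 8 h only among the filled symbols.

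The direct comparison of stimuli asked whether members differed between IF and DC at the same time. At 8 h 1 member passed the threshold, Traf1, which was lower with IF, where 0.665% of all genes passed, 0.231% upward and 0.434% downward. Its log2 difference, IF minus DC, was -0.88 ± 0.18 (SE, adjusted p = 0.0288 in edgeR), and all 3 IF libraries lay below all 3 DC libraries. This call was lost with the replicate number as a block (adjusted p = 0.0525) and with only both groups in the fit (0.0553). It was lost as well without IF 8 h replicate 1 (0.108), 2 (0.114) or 3 (0.108) and without DC 8 h replicate 1 (0.0785), 2 (0.0621) or 3 (0.0981). Traf6 differed by -1.05 ± 0.28 (adjusted p = 0.128) and Birc3 by -0.72 ± 0.20 (adjusted p = 0.15), in each case with no overlap of libraries. DESeq2 put both past the threshold (adjusted p = 0.0366 and 0.03). The members' median difference was -0.37, against -0.01 over all genes.

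At 22 h 0 members passed in edgeR and 0 in DESeq2, where 2.43% of all genes passed in edgeR, 1.23% upward and 1.2% downward. Of the 8 tested members 1 had an unadjusted p below 0.05 in edgeR, as did 1656 of all 10831 tested genes. Traf1 differed by -0.13 on the log2 scale (95% interval -0.49 to 0.24) and Birc3 by -0.39 (adjusted p = 0.37). The member with the unadjusted p was Peli1, lower with IF by -0.55 ± 0.25 (adjusted p = 0.296). Peli1 passed once IF 22 h replicate 1, its highest IF library, was left out (-0.88, adjusted p = 0.0387). The members' median difference was -0.21, against -0.02 over all genes.

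Between 8 h and 22 h the members that passed fell. With IF 1 member passed, Tnfaip3, where 1.12% of all genes passed, 0.637% upward and 0.48% downward. Tnfaip3 fell by 1.10 on the log2 scale (SE 0.26, adjusted p = 0.0484 in edgeR). That call was lost with only both groups in the fit (adjusted p = 0.0645) and without both libraries of low mitochondrial rRNA (0.448), where the log2 change was -1.51 with 1 IF 22 h library left. It was also lost without IF 8 h replicate 1 (0.171) or 3 (0.177) and without IF 22 h replicate 1 (0.0658), 2 (0.0883) or 3 (0.2). Birc3 differed by -0.86 ± 0.20 between the IF times (adjusted p = 0.0526), and it passed under other scalings, in DESeq2 (0.00365) and with the block (0.0482).

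With DC 1 member passed between the times, Birc3, where 0.48% of all genes passed, 0.379% upward and 0.102% downward. Birc3 fell by 1.19 on the log2 scale (SE 0.20, adjusted p = 0.0128 in edgeR), and all 3 DC 22 h libraries lay below all 3 DC 8 h libraries. The call was lost with only both groups in the fit (adjusted p = 0.222), without DC 8 h replicate 1 (0.0525) or 2 (0.0594) and without DC 22 h replicate 1 (0.0607) or 2 (0.0553). Tnip1 differed by -0.85 ± 0.22 (adjusted p = 0.123) and Tnfaip3 by -0.92 (adjusted p = 0.16). Both passed in DESeq2 (adjusted p = 0.0203 and 0.0385), and Tnip1 also passed without DC 22 h replicate 3 (0.0255). The members' median change was -0.44 with DC and -0.12 with IF, against 0.00 and -0.01 over all genes.

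The interaction term compared the gap between IF and DC at 22 h with the gap at 8 h. At this test 0 members passed in edgeR and 0 in DESeq2, where 0% of all genes passed in edgeR and 40 genes did in DESeq2. Unadjusted p-values below 0.05 in edgeR came from 858 of all 10831 tested genes. Among them were 2 of the 8 tested members, Traf1 (0.76 ± 0.25, adjusted p = 0.466) and Traf6 (1.01 ± 0.39, adjusted p = 0.537). In both genes the gap between IF and DC was narrower at 22 h than at 8 h, without passing the test.

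**Figure D3:**
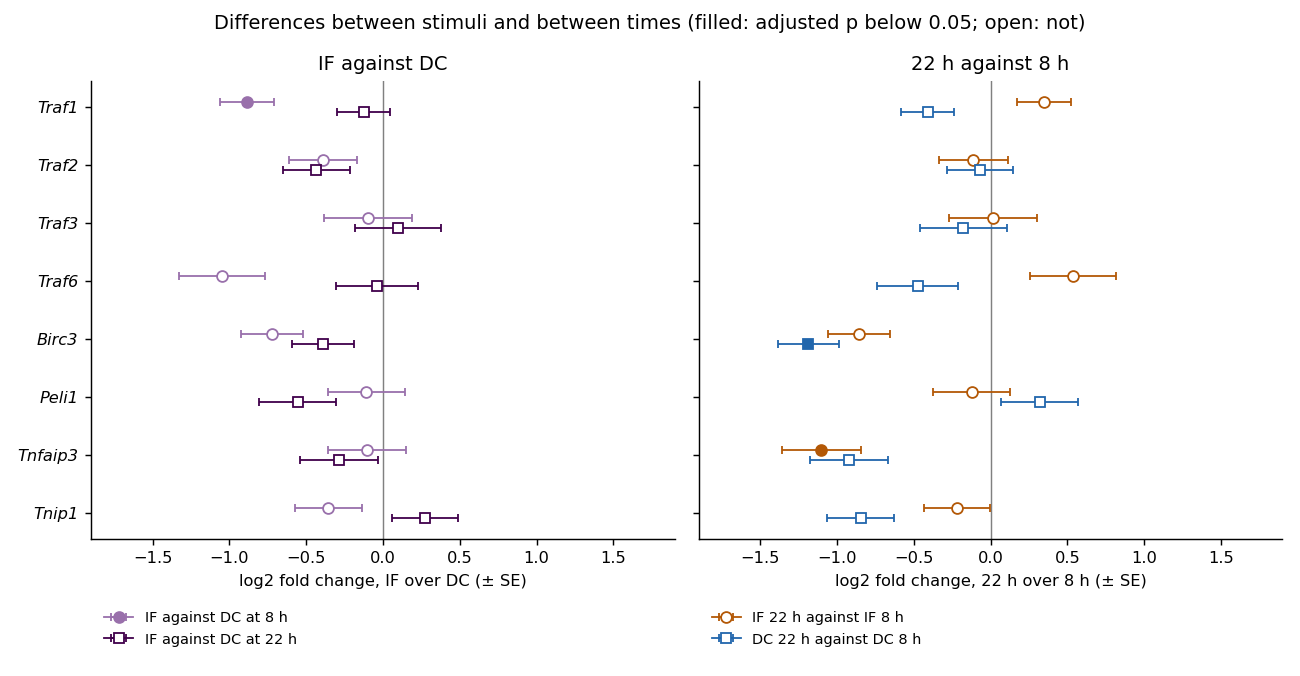
Log2 difference of the 8 tested members between IF and DC at each time, and between 22 h and 8 h with each stimulus. Bars are ± SE, and filled symbols have an adjusted p below 0.05 in edgeR. Traf1 at 8 h (-0.88), Tnfaip3 between the IF times (-1.10) and Birc3 between the DC times (-1.19) are the filled symbols.

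Across the 15 libraries the 28 pairs of tested members had Pearson correlations of log2 CPM from -0.64 to 0.66, with a median of 0.09. The highest were Tnip1 with Birc3 (0.66), Traf1 with Birc3 (0.63) and Traf1 with Tnip1 (0.52), and the lowest was Traf1 with Tnfaip3 (-0.64). These points share their groups and libraries, so the values are a description. Among all tested genes the profile most like that of Birc3 was Phlda3 (r = 0.94), then Zmiz2 (0.92) and Relb (0.89), the NF-κB subunit of the non-canonical pathway. For Traf1 these were Mif4gd (0.94), Tbc1d8 (0.91) and Tmem176b (0.89). Tnip1 was most like Akap2 (0.89), Ikbke (0.88), an IKK-related kinase, and Aldh6a1 (0.88). Tnfaip3 was most like Rnu12 (0.95), H3f3b (0.93) and Ppp1r15a (0.93), the last of which encodes GADD34 of the stress response. Rnu12 averaged 0.0569 CPM at IF 22 h and 0.159 CPM at DC 22 h. Phlda3 averaged 0.503 CPM in unstimulated cells and 0.420 CPM at IF 22 h, and Tbc1d8 0.569 CPM in unstimulated cells. These means lie within or under the range of limits for a count of 0 (0.153 to 0.995 CPM).

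The genes most like Traf6 were Cd74 (r = 0.91), H2-Eb1 (0.89) and H2-Aa (0.88), which serve antigen presentation by MHC class II. Cd74 was 77.1, 62.4 and 148 CPM in unstimulated cells, 20.5, 60.0 and 16.6 CPM at IF 8 h, and 117, 113 and 124 CPM at DC 8 h. Its 22 h values were 38.2, 59.6 and 75.8 CPM with IF and 67.5, 53.8 and 74.3 CPM with DC. Within the unstimulated group replicate 3 was highest for both Cd74 and Traf6, and within IF 8 h replicate 2 was. In both 22 h groups replicate 3 was highest for both genes. Within DC 8 h replicate 2 was the highest for Traf6 and the lowest for Cd74. The lowest replicate differed between these genes in every stimulated group. Of 20 listed dendritic cell markers, all in the tables, the summed level was 1022 to 1884 CPM in unstimulated cells, 476 to 759 at IF 8 h and 1223 to 1566 at DC 8 h. By 22 h the sum was 583 to 845 with IF and 726 to 977 with DC. Ccl17 and Zbtb46 were at 0 in every unstimulated library, Batf3 and Zbtb46 were at 0 in every IF 8 h library, and no listed marker was at 0 throughout another group. The sum is not a measure of dendritic cells alone, since it holds Ccr7, which naive T cells also express and which was 314 to 342 CPM in unstimulated cells and 237 to 274 CPM at IF 8 h. The list's part in the levels of Traf6 was not tested.

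Fscn1, a marker of mature dendritic cells, was 126 to 168 CPM at DC 8 h and 72.9 to 94.8 CPM at DC 22 h. It was at most 0.663 CPM at IF 8 h and at most 6.75 CPM in unstimulated cells. At IF 22 h, where no dendritic cells are named in the treatment, it was 5.83, 21.5 and 43.8 CPM. Of the 20 markers, IF lay below DC with no overlap of libraries for 13 at 8 h and 6 at 22 h, where 7.7% and 9.11% of all tested genes did so. Itgax, which encodes CD11c, went the other way, at 11.1 to 15.3 CPM at IF 8 h against 3.82 to 6.93 CPM at DC 8 h, and at 13.98 to 31.8 CPM at IF 22 h against 2.05 to 7.69 CPM at DC 22 h. The marker list took 0.0592% ± 0.0173 of counts at IF 8 h and 0.146% ± 0.0170 at DC 8 h (SD, n = 3, two-sided exact permutation p = 0.1, the smallest that 3 against 3 allows). In the 22 h libraries it took 0.0703% ± 0.0118 with IF and 0.0959% ± 0.0137 with DC (SD, n = 3, exact permutation p = 0.2). Without Ccr7, a removal chosen after seeing the data, it took 0.0334% ± 0.0149 with IF and 0.112% ± 0.0181 with DC at 8 h (SD, n = 3, exact permutation p = 0.1). At 22 h these were 0.0485% ± 0.0128 and 0.0658% ± 0.00945 (SD, n = 3, exact permutation p = 0.2). The part of these cells in the levels of Traf1 and Birc3 was not tested in any group.

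**Figure D4:**
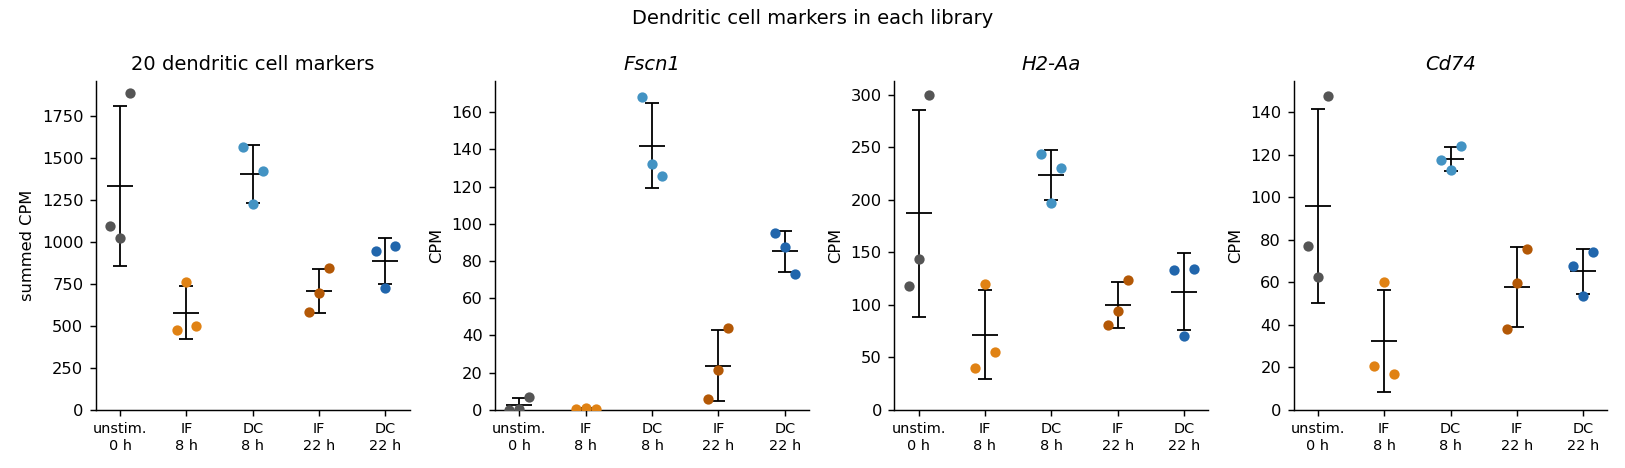
Summed level of 20 dendritic cell markers and the levels of Fscn1, H2-Aa and Cd74 in each library (CPM); dots from left to right in a group are replicates 1, 2 and 3, and bars are mean ± SD (n = 3). Fscn1 reaches 126 to 168 CPM at DC 8 h, is at or below 0.663 CPM at IF 8 h and spans 5.83 to 43.8 CPM at IF 22 h, while unstimulated replicate 3 and IF 8 h replicate 2 are the highest of their groups for H2-Aa and Cd74.

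The wider pathway was described by 70 listed genes in 5 groups, of which 67 were in the tables and 64 were tested. Against unstimulated cells 9 passed at IF 8 h (7 upward), which is 14.1% beside 7.76% of all tested genes, and 13 at DC 8 h (12 upward), 20.3% beside 6.82%. At 22 h 7 passed with IF (4 upward), 10.9% beside 6.08%. With DC 5 passed (all upward), 7.81%, which is near the 7.76% of all genes. Their median log2 fold change was 0.20 at both 8 h points, -0.04 at IF 22 h and 0.08 at DC 22 h, where all genes had medians of 0.02 and 0.04 at 8 h with IF and DC and of 0.01 and 0.04 at 22 h.

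Among 8 tested TRAF-coupled receptors Tnfrsf9, which encodes 4-1BB, rose in all 4 groups, from 4.88 ± 1.33 CPM in unstimulated cells to 173 ± 47.4 CPM at IF 8 h (SD, n = 3). Tnfrsf18 and Tnfrsf25, the receptors GITR and DR3, rose at DC 8 h, with log2 fold changes of 1.21 ± 0.20 and 0.97 ± 0.25. Cd27 rose at IF 22 h, by 0.64 ± 0.17 (adjusted p = 0.0306 in edgeR). The Tnfrsf18 call held in 12 of 12 alternatives, that of Tnfrsf25 in 9 of 12 and that of Cd27 in 7 of 13. Of the receptor genes named here, Tnfrsf18 overlaps exons of Gm16008 on the opposite strand and Cd27 those of Mir8113 on its own, so their reads may be mixed.

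Among 11 NF-κB subunits and IκB proteins 5 passed at IF 8 h (4 upward) and 7 at DC 8 h (all upward), where 7.76% and 6.82% of all genes passed. Their median log2 fold change was 0.51 and 0.88, against 0.02 and 0.04 over all genes. At IF 22 h 2 passed, Nfkbia and Nfkbiz, both lower, and at DC 22 h 3 passed, all higher, where 6.08% and 7.76% of all genes passed. The medians at 22 h were 0.20 and 0.37, against 0.01 and 0.04. Nfkb2 rose at IF 8 h, DC 8 h and DC 22 h, with log2 fold changes of 1.40, 1.94 and 1.47, and did not pass at IF 22 h. Nfkb2 shares exonic bases with Psd and AC114539.1 on the opposite strand, so its reads may be mixed. Nfkbid passed upward with both stimuli at 8 h, by 1.55 ± 0.32 at IF 8 h (SE, adjusted p = 0.00789 in edgeR), and passed with neither at 22 h. Relb was 18.1, 21.1 and 24.4 CPM in unstimulated cells, 60.5, 56.4 and 68.6 CPM at IF 8 h, and 66.1, 69.7 and 73.1 CPM at DC 8 h. It was back to 22.5, 27.8 and 29.3 CPM at IF 22 h, which overlapped the unstimulated range, and was 32.0, 33.7 and 42.6 CPM at DC 22 h. Relb fell between the times with both IF (-1.22 ± 0.19, adjusted p = 0.00735) and DC (-0.94 ± 0.18, adjusted p = 0.0283), and its log2 rise was 1.55 at IF 8 h and 1.72 at DC 8 h. The DC time call of Relb held in 6 of 12 alternatives. In the direct comparisons of IF with DC, 3 of these 11 genes passed at 8 h and 4 at 22 h, all lower with IF, where 0.665% and 2.43% of all genes passed.

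Bcl3, an atypical IκB protein, was 29.2, 17.2 and 33.5 CPM in unstimulated cells, 36.6, 38.1 and 51.7 CPM at IF 8 h, and 124, 149 and 202 CPM at DC 8 h. After 22 h the level was 20.9, 21.6 and 17.4 CPM with IF and 114, 147 and 152 CPM with DC. Both DC groups lay above all other libraries. Bcl3 shares exonic bases with Gm16175 on the opposite strand, so reads of either may be counted for it. Nfkbia, the inhibitor IκBα, was 355, 298 and 393 CPM in unstimulated cells and 253, 251 and 280 CPM at IF 8 h. With DC it was 431, 616 and 541 CPM at 8 h and 298, 296 and 397 CPM at 22 h. It passed the threshold against unstimulated cells in none of these groups. At IF 22 h Nfkbia was 168, 135 and 122 CPM, a log2 fold change of -1.30 ± 0.18 (adjusted p = 0.000382 in edgeR). Without both libraries of low mitochondrial rRNA, which leaves 1 IF 22 h library, it was -1.05 (adjusted p = 0.0849). Nfkbiz, the nuclear protein IκBζ, was 48.6, 41.6 and 55.9 CPM in unstimulated cells, 28.0, 22.5 and 35.4 CPM at IF 8 h, and 21.5, 17.2 and 19.5 CPM at IF 22 h. With DC it was 42.5, 48.8 and 37.9 CPM at 8 h and 32.3, 38.5 and 41.6 CPM at 22 h, and both DC groups overlapped the unstimulated libraries. Nfkbiz fell with IF, by 0.76 on the log2 scale at 8 h (SE 0.21, adjusted p = 0.0357 in edgeR) and by 1.32 at 22 h (SE 0.21, adjusted p = 0.000986). Its IF 22 h call held in 12 of 13 alternatives and was lost without both libraries of low mitochondrial rRNA, and its IF 8 h call was not followed through the alternatives.

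Among 15 other TRAF proteins and adaptors Irak2, a kinase that works with TRAF6, rose at IF 8 h, DC 8 h and IF 22 h, with log2 fold changes of 1.73 ± 0.44, 1.68 ± 0.43 and 1.60 ± 0.43. These calls of Irak2 held in 8 of 12, 8 of 12 and 6 of 13 alternatives, and Irak2 shares exonic bases with Gm43963 on the opposite strand. Among 15 other ubiquitin enzymes and A20 partners Tnip3, which encodes ABIN3, passed in all 4 groups. It had 0 counts in the unstimulated libraries and 6.48 ± 2.42 CPM at IF 8 h (SD, n = 3), at least 35.9-fold higher than the limit of 3 counts over the group. It was at least 37.1-fold higher at DC 8 h, 33.5-fold at IF 22 h and 65.7-fold at DC 22 h. These limits rested on single libraries: without replicate 2 of the DC group itself they were 20.2-fold at DC 8 h and 19.97-fold at DC 22 h. Without unstimulated replicate 1 they were 21.2-fold at IF 8 h, 21.9-fold at DC 8 h, 19.8-fold at IF 22 h and 38.8-fold at DC 22 h, in alternatives chosen after seeing the data.

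**Figure D5:**
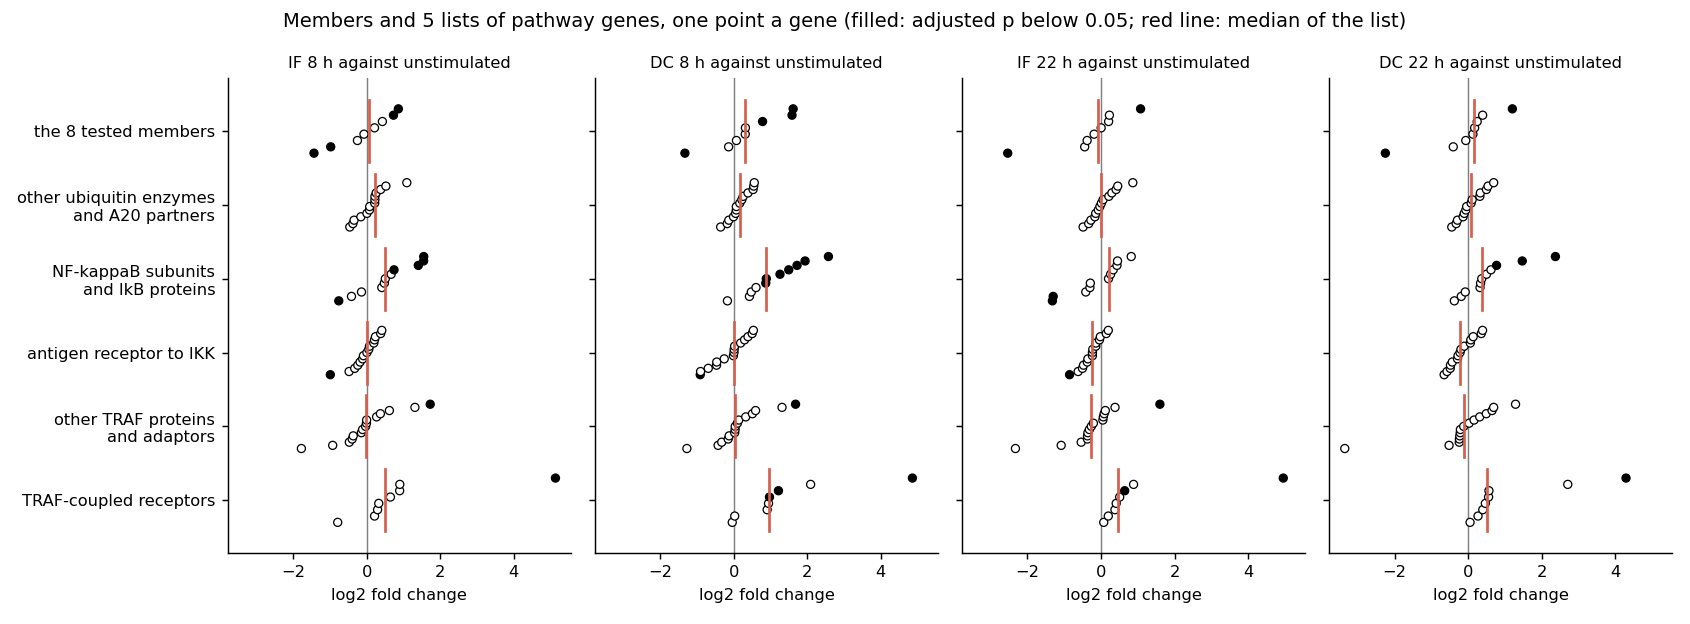
Log2 fold change of the 8 tested members and of the tested genes of 5 pathway lists against unstimulated cells, with each gene a point, filled where the adjusted p in edgeR is below 0.05, and a red line at the median of the list. Tnip3, at 0 in unstimulated cells, is not drawn as a point, and the NF-κB subunits and IκB proteins hold 7 filled points at DC 8 h.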

How the data were processed

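The authors deposited raw counts per gene for 15 libraries, made by an adapted CEL-seq protocol, per the labels' protocols. BWA and mm10 are named in the submitters' processing notes. The aligner's version, the counter, the gene models, strand handling and any molecular identifiers are not given in the sources used here, so limits on counts of 0 cover counting error only.

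Genes were kept by filterByExpr (minimum count 10, minimum total 15), libraries were scaled by TMM, and all 15 libraries entered 1 quasi-likelihood fit across all genes, with a mean for each of the 5 groups, in edgeR 4.0.16 and limma 3.58.1 in R 4.3.3. In each comparison two-sided p-values were adjusted over the 10831 genes by the Benjamini-Hochberg method, and 0.05 was the threshold. Fold changes are log2 values with a prior count of 0.125, and likeness used log2 CPM with a prior count of 2. The procedure was tested on simulated data. Gene positions are from GENCODE vM21 on GRCm38. Named genes were all members, up to 3 genes of each pathway list with the smallest p past the threshold in a comparison, the 3 genes most like each member that passed, and defining markers. The members and lists were chosen with earlier results of these data known. Of the list from the antigen receptor to IKK, single genes are not reported here, apart from Ikbke, which is named for its likeness to Tnip1.

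Every group's titles carry Don1 to Don3, which may name donors and so may pair the libraries, but the labels do not state it. Same-numbered libraries did not deviate together in most pairs (correlations of -0.19 to 0.40 over 30 pairs, median 0.003, 4 above 0.1). Over 60 pairs of unlike number the correlations ran from -0.31 to 0.21 (median -0.006), so the highest same-number value exceeded all of these. The number was used as a block only in an alternative. Other alternatives were DESeq2 size factors, library size alone, no low-count filter, DESeq2 1.42.0, only the groups compared in the fit, each library left out, and both IF 22 h libraries of low mitochondrial rRNA left out. The dendritic cell marker share without Ccr7 and the Tnip3 limits without each library were added after seeing the data.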

Additional observations from a re-analysis of the deposited data

Results flagged for a closer look

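A direct test of IF against DC at the same time separated the stimuli for 5 of the 72 tested members and pathway genes at each time, each lower with IF, where 0.665% of all genes passed at 8 h and 2.43% at 22 h. At 8 h the log2 difference, IF minus DC, was -0.88 for Traf1, the only member among them. It was -1.91 for Bcl3, -1.40 for Nfkbie, -1.02 for Nfkbia and -0.92 for Tnfrsf18. At 22 h it was -2.79 for Bcl3, -1.22 for Nfkbia, -1.21 for Nfkb2, -0.95 for Nfkbiz and -0.91 for Tank, the TRAF-associated NF-κB activator. Of 20 listed dendritic cell markers, IF lay below DC with no overlap of libraries for 13 at 8 h and 6 at 22 h, and above DC for 1, Itgax, at each time. Over all tested genes IF lay below DC in this way for 7.7% and 9.11%, and above for 5.8% and 10.7%. The list took 0.0592% of counts with IF and 0.146% with DC at 8 h (exact permutation p = 0.1, n = 3), and 0.0703% and 0.0959% at 22 h (exact permutation p = 0.2, n = 3). NK cell markers went the other way, summing to 12.3 to 16.6 CPM with IF and 8.81 to 10.6 CPM with DC at 8 h, and to 18.5 to 25.7 and 2.77 to 12.1 CPM at 22 h. B cell markers overlapped at 8 h and summed to 18.8 to 38.1 CPM with IF and 5.2 to 13.9 CPM with DC at 22 h. The part of these markers in the differences was not tested. In GENCODE vM21 the exons of Bcl3, Nfkb2 and Tnfrsf18 overlap exons of genes on the opposite strand, so reads of either may be counted for them. Bcl3 kept its call in 12 of 12 alternatives at 8 h and 13 of 13 at 22 h, while Traf1 kept its call in 4 of 12, Tnfrsf18 in 5 of 12 (adjusted p up to 0.189 in edgeR) and Tank in 5 of 13. At 8 h Nfkbia kept its call in 8 of 12 and Nfkbie in 9 of 12. At 22 h Nfkbia and Nfkb2 kept theirs in 12 of 13, and Nfkbiz was not followed through the alternatives of that comparison.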

How the results depend on the processing

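Of 15 member calls over 9 comparisons none changed direction in any alternative. Over 944 alternative values of the members, 888 kept their side of the threshold, 43 lost a call, 13 gained one and 0 reversed. The calls of Tnfaip3 against unstimulated cells in all 4 groups, of Traf1 in both DC groups and of Birc3 at DC 8 h held in every alternative run. Between the IF times, 2 members passed with DESeq2 size factors, with library size alone and in DESeq2, and 0 passed with only both groups in the fit or without both libraries of low mitochondrial rRNA. Between the DC times, 3 members passed without the filter and 3 in DESeq2, and 0 with only both groups in the fit. For IF against DC at 8 h, 3 members passed in DESeq2 and 0 with only both groups. At IF 22 h against unstimulated cells, 1 member passed without both libraries of low mitochondrial rRNA. With the replicate number as a block, 0 members passed for IF against DC at 8 h and 2 between the IF times, and no other count of members moved by over 1.5 times. Of the 15 libraries, 8 correlated best with a library of their own number, a hint from the data and not from the design. Leaving out 1 library at a time gave 1 to 3 members at IF 8 h, 3 to 4 at DC 8 h, 2 to 2 at IF 22 h and 2 to 2 at DC 22 h. It gave 0 to 0 for IF against DC at 8 h, 0 to 1 at 22 h, 0 to 1 between the IF times, 0 to 2 between the DC times and 0 to 0 for the interaction. For pathway genes, library size alone gave 14 at IF 8 h and 11 at DC 22 h. Between the DC times they numbered 3 without the filter, 4 in DESeq2 and 0 with only both groups, and with only both groups they numbered 3 for IF against DC at 22 h. Without both libraries of low mitochondrial rRNA they numbered 1 at IF 22 h, 1 for IF against DC at 22 h and 0 between the IF times. Leaving out 1 library gave 5 to 9 pathway genes at IF 8 h, 9 to 12 at DC 8 h, 4 to 6 at IF 22 h and 4 to 5 at DC 22 h. It gave 1 to 4 for IF against DC at 8 h, 3 to 6 at 22 h, 1 to 4 between the IF times, 0 to 3 between the DC times and 0 to 0 for the interaction. Library size alone moved the median of all genes to 0.26, 0.30, 0.22 and 0.37 at IF 8 h, DC 8 h, IF 22 h and DC 22 h, and the share of calls that were higher to 76.3%, 79.6%, 74.1% and 85.4%, from 39.2%, 40.3%, 43.3% and 43.9%. Counts over all genes moved by over 1.5 times in several alternatives. Without the filter they were 1129 at DC 8 h (739 with it), 1101 at IF 22 h (658) and 1278 at DC 22 h (840), and 215 and 706 for IF against DC at 8 h and 22 h (72 and 263). They were then 502 between the IF times (121), 251 between the DC times (52) and 155 for the interaction (0). In DESeq2 the same 9 counts, starting with IF 8 h, were 1269 (840 in edgeR), 1175, 1066, 1267, 195, 563, 366, 210 and 40. With only both groups in the fit they were 1299 at IF 8 h, 993 at IF 22 h, 517 at DC 22 h, 47 and 70 for IF against DC at 8 h and 22 h, and 0 between the DC times. Library size alone gave 1586 at DC 22 h. Without both libraries of low mitochondrial rRNA the counts were 99 at IF 22 h, 8 for IF against DC at 22 h and 0 between the IF times. Leaving out 1 library gave 419 to 573 genes at IF 8 h, 404 to 665 at DC 8 h, 283 to 947 at IF 22 h and 454 to 984 at DC 22 h. It gave 27 to 52 and 90 to 759 for IF against DC at 8 h and 22 h, 24 to 541 between the IF times, 1 to 138 between the DC times and 0 to 279 for the interaction. The causes of these shifts were not tested. The dendritic cell marker share kept its direction in all alternatives run.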
